A study of Mus musculus with 88 samples.

Results

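Isoproterenol at 50 nM for 1 h was compared with medium alone for 1 h in RAW 264.7 cells, a mouse macrophage-like line transformed by Abelson murine leukaemia virus. The comparison rests on 6 of the 88 arrays of the series, chosen by their labels as all arrays with isoproterenol (ISO) alone for 1 h. They form 3 sets of 2 arrays each. In a set, ISO RNA and medium RNA shared each array, and the dyes were swapped between the 2 arrays. The series also holds ISO alone for 2 h and for 4 h (50 nM, 3 sets each), prostaglandin E2 (PGE2) alone for 1 h (10 µM, 2 sets), and groups with lipopolysaccharide. Each group was set against medium of the same time. The medium of the ISO and PGE2 arrays at 1 h carries the same label, and the labels do not say whether it was the same RNA. All groups used here are of 1 cell line at 1 dose per ligand, and the labels give no genetic change. Separate cultures per set are not named in the labels. The p-values below therefore measure only how far sets differ, and that may be technical. Their spread is drawn from the sets of all 15 groups of the series, not from the 3 ISO sets alone.

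Isoproterenol is a synthetic catecholamine that activates beta-adrenergic receptors. These receptors act through the G protein Gs and adenylyl cyclase to raise cyclic AMP (cAMP), which activates protein kinase A and Epac. Protein kinase A phosphorylates CREB, a transcription factor that binds the cAMP response element (CRE) of early target genes. The signal is limited by phosphodiesterases, which degrade cAMP, and by regulators of G protein signalling (RGS proteins), which speed the return of G proteins to their inactive state. In macrophages, cAMP is known for restraining the release of TNF and for inducing a subset of inflammatory and tissue-repair genes.

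Each value is a log2 ratio of ISO over medium, so a log2 ratio of 1 is a 2-fold higher level with ISO. The direction is likely and not stated in the sources used here. Its basis is that 20 genes known to be induced by lipopolysaccharide had a median above 0 on all 18 arrays of lipopolysaccharide without ISO or PGE2, from 1.98 to 3.29. Per the labels, that lipopolysaccharide was given at 100 ng/ml together with 100 pM of lipid binding protein. On the 6 arrays with ISO at 1 h, 18.9 to 33.4% of probes held exactly 0. Single arrays went with their dye orientation: across probes, arrays of the same orientation correlated at 0.204 to 0.497, and the 2 arrays of a set, turned to the same direction, at −0.0893 to 0.145. Each pair was averaged to 1 value per set. Across 10518 genes the set means correlated at 0.00503 between sets 1 and 2, at 0.397 between sets 1 and 3 and at 0.402 between sets 2 and 3. These correlations are across genes, which are not independent replicates. The signal behind a ratio is unknown here, so presence or absence of a transcript could not be read from these values. Of 19 macrophage markers none passed the limma test (3 at an unadjusted p under 0.05), with log2 ratios of −0.34 to 0.22. Of 25 markers of other cell types none passed it either (1 at an unadjusted p under 0.05), with log2 ratios of −0.10 to 0.16.

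After 1 h, ISO changed a small set of genes, most of them upward. The largest increase was that of Nr4a1, an orphan nuclear receptor and immediate early gene, and the largest decrease that of Rgs1, a regulator of G protein signalling. In all, 95 of 10518 genes passed an adjusted p of 0.05 in limma (0.903% of genes tested). Of these, 75 were higher with ISO (0.713% of genes tested) and 20 were lower (0.19%). At least a 2-fold difference was reached by 18 of the higher and 4 of the lower genes. The median over all genes was 0.0062 on the log2 scale. The sign was the same in all 3 sets for 93 of the 95 genes, the exceptions being Kalrn and Sdc2, each measured on 2 of 6 arrays and named after their values were seen. It was the same in both dye orientations for 94 of the 95. An unadjusted p under 0.05 was found for 1037 genes. With set 2 left out 56 genes passed, and in a fit of the 3 sets alone, without the spread shared with the other groups, 0 passed at the adjusted threshold and 806 at an unadjusted p under 0.05.

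**Figure D1:**
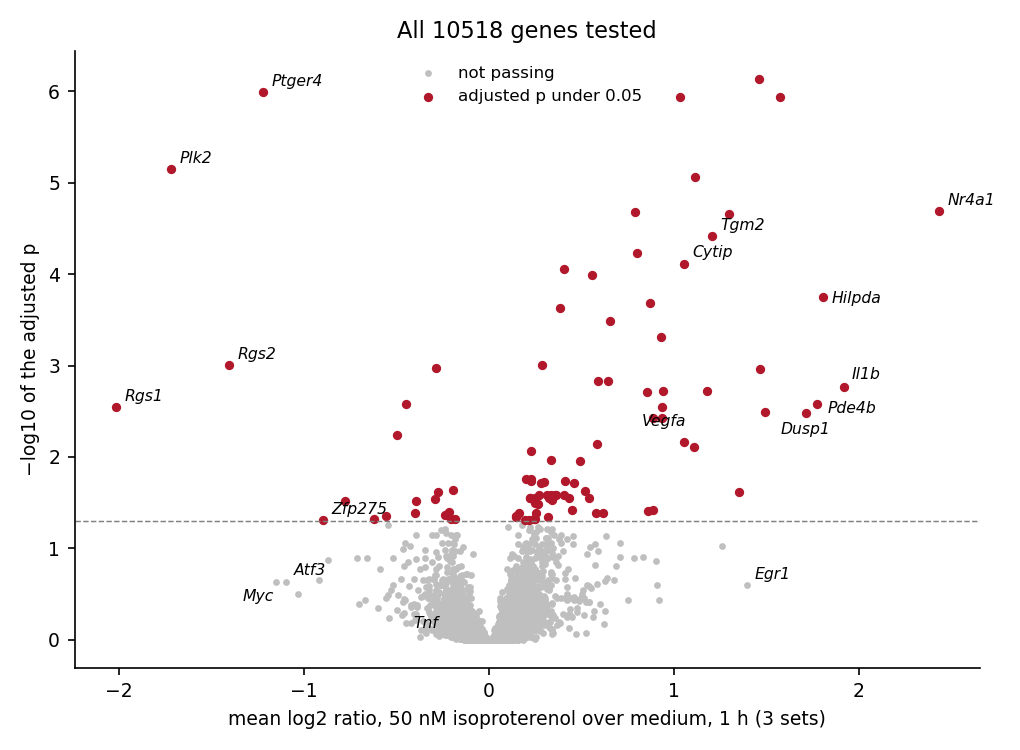
Mean log2 ratio of ISO over medium at 1 h (horizontal axis, 3 sets) against −log10 of the limma adjusted p (vertical axis) for 10518 genes. Red points are the 95 genes past the threshold of 0.05 (dashed line), 75 to the right of 0 and 20 to the left, and Egr1, Myc and Atf3 lie more than 2-fold from 0 without passing.

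Of the gene lists examined, the targets of cAMP and CREB, the longest list on the array, held the most changed genes. Of 41 genes listed as such targets, 36 were on the array. Of these, 10 were higher with ISO and 1, Rgs2, was lower. Of all genes tested, 0.903% passed. The median log2 ratio of the 36 genes was 0.21, beside 0.0062 for all genes tested, and 29 of the 36 lay above 0. The list was drawn up with earlier results of these data known, so neither its count of changed genes nor its direction is independent evidence.

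Values are given below in the order of sets 1, 2 and 3. Nr4a1 had log2 ratios of 2.48, 2.08 and 2.73, a mean of 2.43 ± 0.33 (SD, n = 3) or 5.39-fold (adjusted p 2.05e-05). All 6 arrays lay far above 0 for this gene, between 2.05 and 2.93. Its paralogue Nr4a2 had log2 ratios of 1.63, 1.12 and 1.63, a mean of 1.46 ± 0.29 (SD, n = 3, adjusted p 7.29e-07). The Nr4a2 value averages probes that disagreed in size, at 2.62 and 0.30, and with the most often measured probe alone the adjusted p was 0.498. With 1 set left out it ran from 1.3e-06 to 0.000169. The third member of the family, Nr4a3, showed no such value, with a mean of −0.0053 ± 0.03 (SD, n = 3). Its single arrays ran from −0.35 to 0.34, above 0 with ISO RNA in Cy5 and below 0 with ISO RNA in Cy3 in every set.

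Genes that limit signalling were among those that rose. Pde4b, a cAMP-specific phosphodiesterase, had log2 ratios of 1.98, 1.14 and 2.21, a mean of 1.77 ± 0.56 (SD, n = 3, adjusted p 0.00265). Its value in set 2 was the lowest, and both of its probes were above 0 in every set. Dusp1, the phosphatase MKP-1 that inactivates p38 and JNK, had 1.78, 1.73 and 1.62, a mean of 1.71 ± 0.083 (SD, n = 3, adjusted p 0.00334), a spread far narrower than its distance from 0. Btg2, an antiproliferative co-regulator of transcription and mRNA decay, had 1.16, 1.81 and 1.42, a mean of 1.46 ± 0.33 (SD, n = 3, adjusted p 0.00108). In contrast to Pde4b, Btg2 was highest in set 2.

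The other raised genes of the list were Ier2 (mean log2 ratio 1.05), the transcription factor Cebpb (1.03), the angiogenic factor Vegfa (0.94), Id1 (0.93), an inhibitor of basic helix-loop-helix factors, and the clock gene Per1 (0.85). Cebpb was 0.76, 1.38 and 0.95 in the 3 sets. Vegfa had the narrowest spread of these, with 0.97, 0.93 and 0.91. The Id1 probes were both above 0 at 1.33 and 0.53. Several calls depended on 1 set. Over the 3 fits that each left out 1 set, the adjusted p ran from 0.0059 to 0.067 for Pde4b (highest without set 3), from 0.0282 to 0.0831 for Ier2 (lost without set 1 and without set 2) and from 0.00565 to 0.0948 for Per1 (highest without set 2).

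Textbook CREB targets that did not pass included Egr1, Crem and Fos. Egr1 was high in all 3 sets, with log2 ratios of 1.46, 1.55 and 1.16 and a mean of 1.39 ± 0.21 (SD, n = 3), but its adjusted p was 0.25. The standard error that the fit gave it from all 15 groups was 0.50. Crem, which encodes the cAMP-inducible repressor ICER as well as activators, had 1.12, 0.08 and 1.15. It was measured on 5 of 6 arrays, and its set 2 value averages 0.15 and an exact 0. Its adjusted p was 0.127, and it ran from 0.0495 to 0.504 over the fits that left out 1 set, passing without set 2. With pair means taken only where both arrays held a value other than 0, an alternative added after the data were seen, the adjusted p was 0.00222, the lowest of a range up to 0.707 over the alternatives. Fos had 0.14, 1.05 and 0.10, highest in set 2 (adjusted p 0.534). Its 2 probes disagreed, one at −0.31, 0.74 and 0.04 and the other at 0.59, 1.36 and 0.16. Sik1, a kinase that holds CREB coactivators in the cytoplasm, averaged 0.14 ± 0.12 (SD, n = 3, adjusted p 0.445). Areg, another gene of this kind, was not analysed here.

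**Figure D2:**
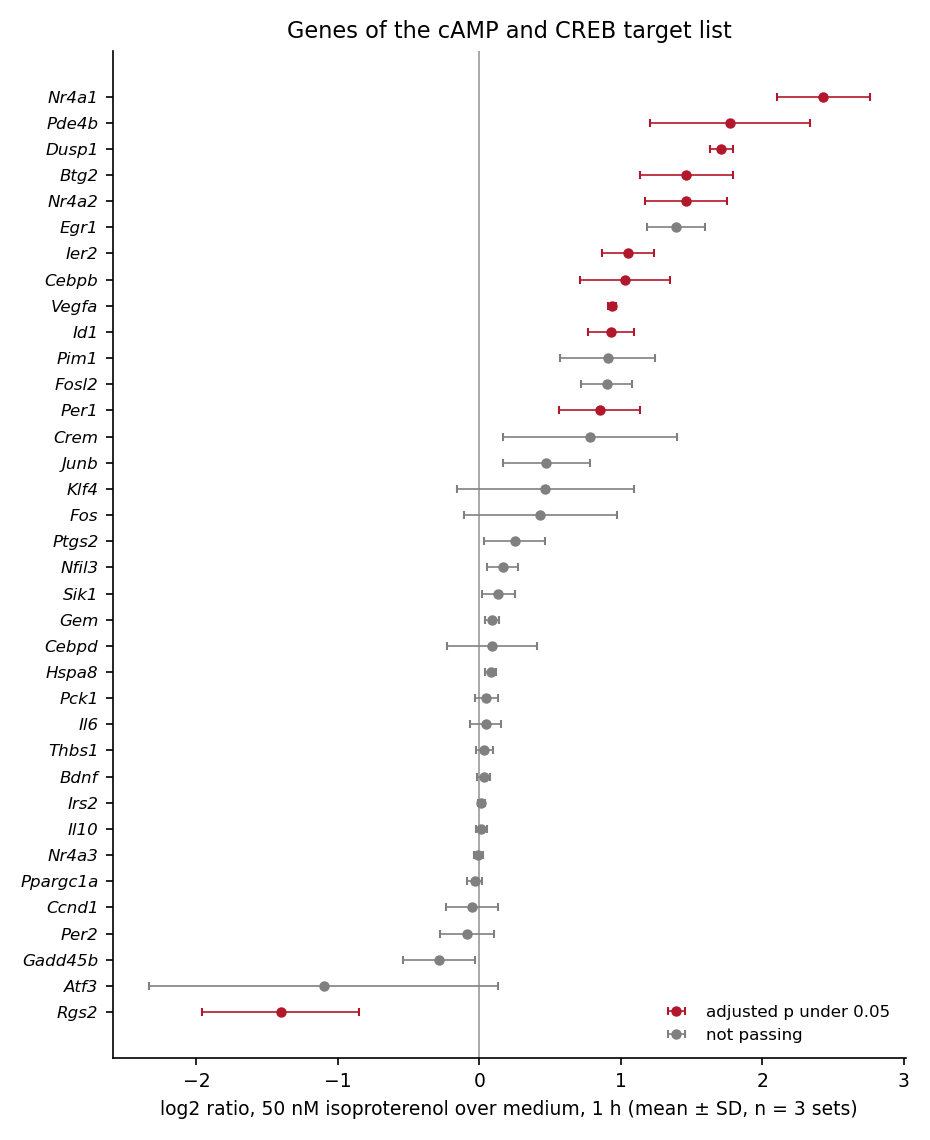
Log2 ratio of ISO over medium at 1 h for the 36 genes of the cAMP and CREB target list (mean and SD of 3 sets). Red marks the 11 genes past the threshold, 10 above 0 and Rgs2 below it, and grey the others, among them Egr1 at 1.39.

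The promoters of the changed genes were searched for CRE letters, since CREB binds there. RefSeq promoter sequences of assembly GRCm38.p6, which span 250 bases before to 50 bases after a gene's start, were found for 55 of the 75 raised genes and for 15 of the 20 lowered ones. The full CRE, TGACGTCA, reads the same on both strands. Its core, TGACG, was searched on both strands, so that CGTCA is its other reading. A full CRE contains the core, and such a core was not counted again in a promoter's matches. A gene with several listed starts counted where any of its promoters held the letters. Counted by gene, the full CRE stood in 6 of the 55 raised genes (10.9%) and in 1 of the 15 lowered ones (6.67%). It stood in 225 of the 8381 tested genes with a promoter (2.68%). Counted by single promoter, it stood in 588 of all 32851 promoters of the table (1.79%). Shares by gene and by single promoter are unlike measures, since a gene can have several promoters. The core, alone or within a full CRE, was present in 26 of the 55 genes (47.3%) and in 6 of the 15 (40%). This stands beside 30.7% of the tested genes with a promoter and 20.8% of all single promoters. These shares are a description, and no match in a window says only that the letters are not in that window.

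The promoters shown are those of the raised genes of the target list with a full CRE (Dusp1, Btg2) or with 4 cores (Nr4a1, Nr4a2), and of Plk2, the lowered gene with a full CRE, chosen after the matches were seen (GRCm38.p6, RefSeq, written 5′ to 3′ along the gene's strand, with full CREs and cores in capitals). Nr4a1 lies at chr15:101266596-101266895, plus strand, Dusp1 at chr17:26508423-26508722, minus strand, Btg2 at chr1:134079106-134079405, minus strand, Nr4a2 at chr2:57123954-57124253, minus strand and Plk2 at chr13:110394794-110395093, plus strand.
Nr4a1: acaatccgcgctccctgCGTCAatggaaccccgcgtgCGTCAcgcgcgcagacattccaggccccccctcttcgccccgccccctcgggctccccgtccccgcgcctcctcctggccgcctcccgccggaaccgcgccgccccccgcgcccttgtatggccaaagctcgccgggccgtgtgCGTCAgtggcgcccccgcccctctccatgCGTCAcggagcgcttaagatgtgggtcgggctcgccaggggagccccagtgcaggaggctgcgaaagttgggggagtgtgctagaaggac
Dusp1: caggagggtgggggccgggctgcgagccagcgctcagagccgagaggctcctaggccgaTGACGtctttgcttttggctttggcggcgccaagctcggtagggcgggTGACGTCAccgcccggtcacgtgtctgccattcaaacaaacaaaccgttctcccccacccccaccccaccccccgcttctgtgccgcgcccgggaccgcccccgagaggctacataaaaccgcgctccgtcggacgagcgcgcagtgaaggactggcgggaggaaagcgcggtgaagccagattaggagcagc
Btg2: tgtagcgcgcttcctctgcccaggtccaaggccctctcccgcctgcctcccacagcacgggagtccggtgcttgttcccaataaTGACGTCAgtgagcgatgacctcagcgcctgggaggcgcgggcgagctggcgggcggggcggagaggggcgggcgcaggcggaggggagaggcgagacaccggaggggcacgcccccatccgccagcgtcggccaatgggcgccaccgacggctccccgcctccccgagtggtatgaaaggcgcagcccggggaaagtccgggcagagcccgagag
Nr4a2: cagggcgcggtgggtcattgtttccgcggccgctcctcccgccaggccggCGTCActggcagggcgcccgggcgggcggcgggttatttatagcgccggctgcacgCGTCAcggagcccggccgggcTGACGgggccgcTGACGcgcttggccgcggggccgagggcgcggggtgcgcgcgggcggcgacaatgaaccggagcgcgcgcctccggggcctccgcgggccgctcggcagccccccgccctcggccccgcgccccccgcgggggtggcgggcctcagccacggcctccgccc
Plk2: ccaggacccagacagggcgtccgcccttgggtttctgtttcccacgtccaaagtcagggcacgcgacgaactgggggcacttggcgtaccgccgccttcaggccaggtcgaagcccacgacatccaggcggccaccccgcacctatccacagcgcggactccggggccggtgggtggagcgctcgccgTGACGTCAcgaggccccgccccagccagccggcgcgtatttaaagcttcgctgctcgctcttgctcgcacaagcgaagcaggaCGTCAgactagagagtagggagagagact
Nr4a1 held 4 cores and no full CRE, the nearest core beginning 40 bases before the start. Nr4a2 likewise held 4 cores and no full CRE, all between 200 and 111 bases before the start. Dusp1 held a full CRE 143 bases before the start and a separate core 191 bases before it. Btg2 held a full CRE 166 bases before the start. Plk2, which was lower with ISO, held a full CRE 62 bases before the start and a core after it.

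Other immediate early genes moved in both directions. Of 26 such genes on the array, 4 were higher with ISO and 1, Plk2, was lower, with a median log2 ratio of 0.19 over the list. Ier3, a stress-induced regulator of cell survival, had log2 ratios of 1.83, 1.37 and 1.52, a mean of 1.57 ± 0.23 (SD, n = 3, adjusted p 1.16e-06). Phlda1, a pleckstrin homology-like domain protein, averaged 1.49 ± 0.20 (SD, n = 3), and Arc, best known as a synaptic plasticity gene in neurons, averaged 1.18 ± 0.18 (SD, n = 3). Zfp36 encodes tristetraprolin, which destabilises mRNAs with AU-rich elements such as that of Tnf. Its 3 sets lay apart, at 0.98, 1.40 and 0.43, with a mean of 0.94 ± 0.49 (SD, n = 3, adjusted p 0.00188). Plk2, a polo-like kinase, had −2.45, −0.93 and −1.78, a mean of −1.72 ± 0.76 (SD, n = 3, adjusted p 7.09e-06), lower by 3.29-fold. That p rests on a standard error of 0.21 that the fit drew from all 15 groups, not on the wide SD of the 3 sets alone. All 6 arrays lay below 0 for Plk2, between −2.67 and −0.86, and set 2 was nearest to 0. Over the fits that left out 1 set, the adjusted p ran from 0.0282 to 0.0539 for Phlda1 (highest without set 1) and from 0.00182 to 0.141 for Zfp36 (highest without set 2). Myc, of the same list, had −1.34, −0.86 and −1.25 and did not pass (adjusted p 0.236).

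Of the listed components of the cAMP pathway itself, Pde4b alone passed. Over all genes tested 0.903% passed, and 1037 of 10518 had an unadjusted p under 0.05 in limma. The absence of a call in lists this short therefore says little. None of 10 genes for beta-adrenergic receptors, G proteins, arrestins and receptor kinases passed limma's adjusted threshold (1 at an unadjusted p under 0.05), with log2 ratios of −0.15 to 0.10. None of 5 adenylyl cyclases passed (0 at an unadjusted p under 0.05), and none of 14 genes of protein kinase A, Epac and anchoring proteins did (4 at an unadjusted p under 0.05). In this group Prkaca, the catalytic subunit alpha of protein kinase A, was the highest at 0.32 (adjusted p 0.076). Of 7 CREB family members and coactivators none passed (2 at an unadjusted p under 0.05, Crem and Sik1). Of 13 phosphodiesterases 1 was raised, Pde4b.

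Receptors and G protein regulators gave 3 of the 4 largest decreases. Rgs1 had log2 ratios of −1.95, −1.44 and −2.67, a mean of −2.02 ± 0.62 (SD, n = 3, adjusted p 0.00282), or 4.05-fold lower. Its adjusted p ran from 0.0095 to 0.0848 over the fits that left out 1 set, highest without set 3. Rgs2 had −1.94, −0.83 and −1.44, a mean of −1.40 ± 0.56 (SD, n = 3, adjusted p 0.00098). For both genes the 2 probes lay below 0 in every set, and set 2 was nearest to 0. Both proteins accelerate GTP hydrolysis by G protein alpha subunits. Of 13 RGS genes counted apart from Rgs2, Rgs1 alone passed. Rgs16 was at −1.10, −0.96 and −1.05 in the 3 sets without passing (adjusted p 0.316). Ptger4, which encodes the Gs-coupled PGE2 receptor EP4, had −1.38, −0.81 and −1.47, a mean of −1.22 ± 0.36 (SD, n = 3, adjusted p 1.01e-06). It was the only one of 24 other G protein-coupled receptors to pass.

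Of the listed cytokines and chemokines, Il1b rose and no other passed the threshold. Tnfsf14, a cytokine counted in another list, also passed and is given below. Il1b, which encodes the precursor of interleukin-1 beta, had log2 ratios of 1.42, 1.65 and 2.69, a mean of 1.92 ± 0.68 (SD, n = 3, adjusted p 0.00173), or 3.78-fold higher. All 3 of its probes were above 0 in every set, and set 3 was the highest. Its adjusted p ran from 0.0072 to 0.0808 over the fits that left out 1 set, highest without set 3, and was 0.0812 with the most often measured probe. Il1b was 1 of 30 listed cytokines and chemokines on the array, whose median log2 ratio was 0.05. Tnf had −0.81, 0.48 and −0.15, so its sets disagreed in sign and its mean of −0.16 ± 0.64 (SD, n = 3) did not pass (adjusted p 0.871). Il6 averaged 0.045 ± 0.11 and Il10 0.014 ± 0.04 (SD, n = 3 each), both near 0. The mean of Il6 averages opposite values, since its arrays ran from −0.50 to 0.83. They lay below 0 with ISO RNA in Cy5 and above 0 with ISO RNA in Cy3 in every set. The standard error of the fit for Il6 was 0.44.

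The chemokine Ccl4 and the transcription factor Atf3 had the same order of sets as Tnf, lowest in set 1 and highest in set 2. Ccl4 was at −1.97, 0.20 and −0.99, and Atf3 at −2.45, −0.03 and −0.82. With an SD of 1.09 for Ccl4 and 1.23 for Atf3, these were the widest spreads among all genes tested, whose median SD was 0.12, and neither passed (adjusted p 0.223 and 0.230). In the NF-kB list, with 20 subunits and feedback genes, none passed (5 at an unadjusted p under 0.05), the highest being Nfkbie at 0.71. Of 9 MAP kinase phosphatases and feedback regulators counted apart from Dusp1, Dusp2 alone was raised, with a mean of 1.11 ± 0.088 (SD, n = 3, adjusted p 0.00773). Its probes were at 1.48, 1.61 and 0.23. Its adjusted p was 0.0534 to 0.0723 in the fits that left out 1 set, so the call was lost without set 1, without set 2 and without set 3. Ptgs2, which encodes cyclooxygenase-2, was measured on 4 of 6 arrays. Both arrays of its set 1 held exactly 0, and sets 2 and 3 were at 0.38 and 0.37 (adjusted p 0.969). None of 16 eicosanoid enzymes passed (2 at an unadjusted p under 0.05).

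Genes of lipid droplets, glucose use and hypoxia rose in part. Of 25 on the array, 4 were higher and none lower, with a median log2 ratio of 0.07. Hilpda, a small lipid droplet protein that inhibits adipose triglyceride lipase, had log2 ratios of 1.95, 1.81 and 1.66, a mean of 1.81 ± 0.14 (SD, n = 3, adjusted p 0.000178), or 3.50-fold higher. The sets of Hilpda lay close together. Ddit4, an inhibitor of mTORC1 also called REDD1, averaged 1.35 ± 0.17 (SD, n = 3, adjusted p 0.0244). Vegfa, which belongs to this list as well, was given above. Slc2a1, the glucose transporter GLUT1, averaged 0.34 ± 0.33 (SD, n = 3, adjusted p 0.0259), with 0.02, 0.67 and 0.32 in the 3 sets. In the fits that left out 1 set the adjusted p of Ddit4 was 0.0848 to 0.133, past the threshold in none of them. That of Slc2a1 ran from 0.00131 to 0.662, and its call was lost without set 2 and without set 3.

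Genes linked to alternative or regulatory macrophage states gave 3 of 21 higher and none lower (median log2 ratio 0.09). Tgm2, transglutaminase 2, had log2 ratios of 1.01, 1.15 and 1.45, a mean of 1.20 ± 0.23 (SD, n = 3, adjusted p 3.86e-05). Tnfsf14, the cytokine LIGHT, had 1.51, 0.38 and 0.76, a mean of 0.88 ± 0.57 (SD, n = 3, adjusted p 0.0382), and its adjusted p ran from 0.0301 to 0.425 in the fits that left out 1 set, lost without set 1 and without set 3. Vegfa was the third. Of 15 circadian genes, Per1 alone passed.

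Further raised genes act at the cell surface and at membranes. Thbd, thrombomodulin, an anticoagulant cofactor that binds thrombin, had log2 ratios of 1.83, 0.57 and 1.50, a mean of 1.30 ± 0.66 (SD, n = 3, adjusted p 2.19e-05). That p rests on a standard error of 0.17 that the fit drew from all 15 groups, not on the wide SD of the 3 sets alone. Plau, which encodes the plasminogen activator urokinase, was lower, with a mean of −0.78 ± 0.44 (SD, n = 3, adjusted p 0.0304) and its set nearest to 0, set 2, at −0.27. The scaffold genes Grasp and Cytip, which are related and both bind cytohesins, averaged 1.11 ± 0.40 and 1.06 ± 0.53 (SD, n = 3 each). Cytip was at 1.39, 0.45 and 1.33, so set 2 was again the lowest. Cnnm2, a membrane protein of magnesium handling, averaged 0.40 ± 0.19 (SD, n = 3, adjusted p 8.84e-05). Its probes averaged 0.23 and 0.58 and disagreed in sign in sets 1 and 2, and with the most often measured probe alone the adjusted p was 0.414.

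The other named genes that fell changed by less than 2-fold. Usp2, a deubiquitinating enzyme, averaged −0.62 ± 0.31, Lpp, a LIM domain protein of focal adhesions, −0.56 ± 0.16, and Slc16a10, a transporter of aromatic amino acids, −0.45 ± 0.061 (SD, n = 3 each). Zfp275 averaged −0.90 ± 0.13, Mllt11 −0.50 ± 0.16, Asph −0.40 ± 0.24, 2500004C02Rik −0.40 ± 0.063 and Nde1 −0.28 ± 0.072 (SD, n = 3 each). The 2 probes of Asph averaged −0.16 and −0.64, the first of them at −0.61, 0.06 and 0.07 in the 3 sets. With the most often measured probe per gene, the adjusted p was 0.898 for Asph, 0.0506 for Usp2, 0.0627 for Plau and 0.0508 for Zfp275, so these calls were lost. Of these and Plau, Slc16a10 alone kept its call in each fit that left out 1 set (adjusted p 0.0193 to 0.0408). The call of Mllt11 was lost without set 1 (highest adjusted p 0.126), those of Usp2 (0.317) and Plau (0.245) without set 1 and without set 3. Those of Lpp (0.274), Asph (0.424), Zfp275 (0.359), 2500004C02Rik (0.165) and Nde1 (0.147) were lost without set 1, without set 2 and without set 3.

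**Figure D3:**
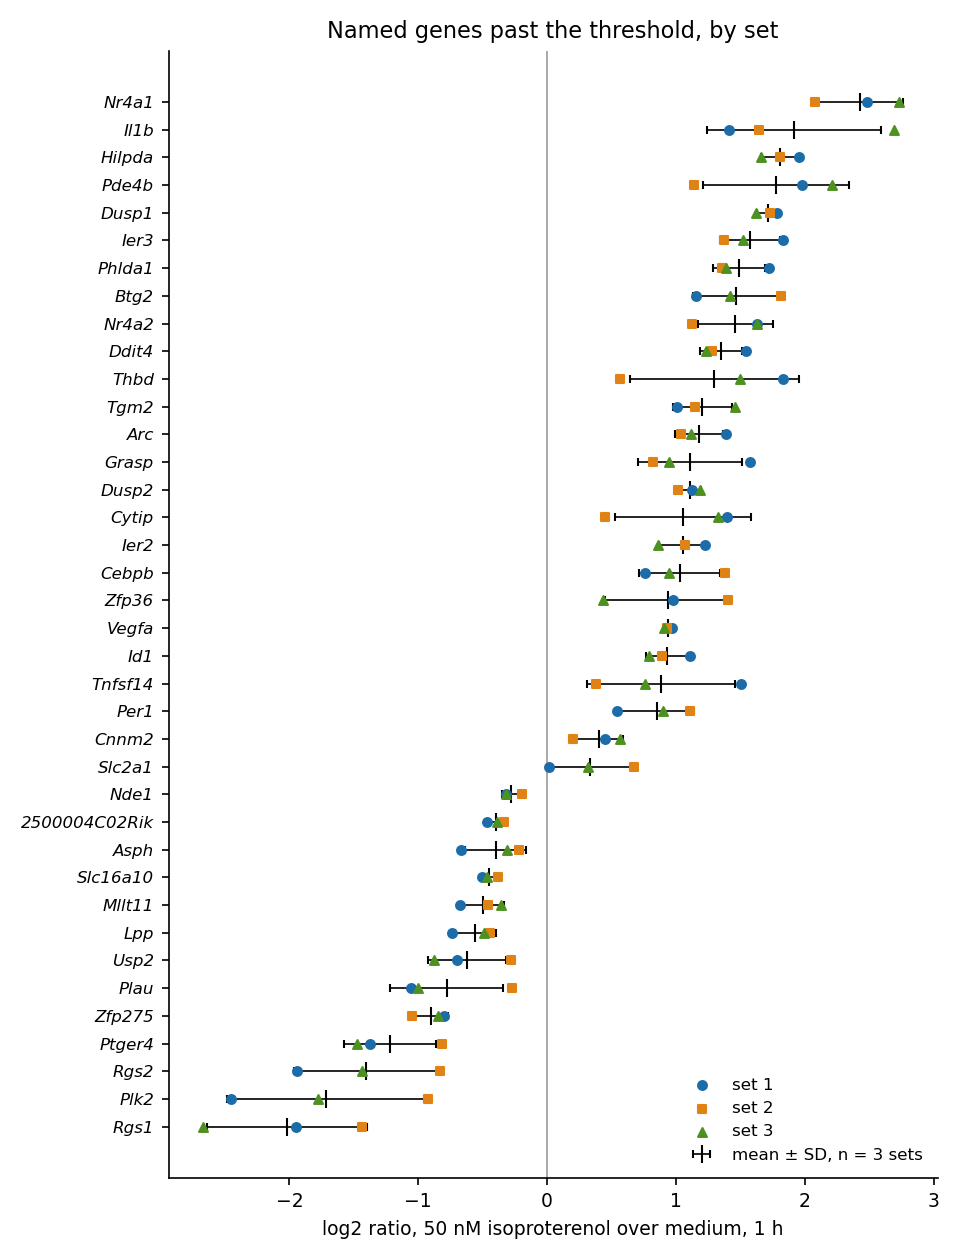
Log2 ratio of ISO over medium at 1 h for the 38 named genes past the threshold, by set (coloured symbols) with mean and SD of 3 sets (black). The values of Dusp1 and Vegfa lie close together, those of Il1b, Thbd and Plk2 lie far apart, and set 2 is nearest to 0 for Thbd, Cytip, Rgs1, Rgs2 and Plk2.

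Large and small changes were not spread evenly over the sets. Of the 41 changed genes of at least 1.5-fold, 19 were largest in set 1, 11 in set 2 and 11 in set 3, and 22 were smallest in set 2. Of the 54 changed genes under 1.5-fold, 33 were largest in set 2, 13 in set 1 and 8 in set 3. The median absolute log2 ratio of these 54 was 0.34 in set 2, 0.23 in set 1 and 0.25 in set 3. Of the changed genes, 50 raised ones at log2 ratios of 0.15 to 0.93 (median 0.34) and 7 lowered ones at −0.29 to −0.18 (median −0.21) stand outside the rule for named genes. What part the differences between sets have in the small changes was not tested.

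Several programmes had no member past the limma threshold, and their medians lay between −0.033 and 0.069, beside 0.0062 for all genes. This held for 29 interferon-stimulated genes (1 at an unadjusted p under 0.05, median log2 ratio 0.012), 23 heat shock and unfolded protein genes (2, median 0.069), and 11 LXR target and sterol synthesis genes (1, median −0.025). It also held for 26 genes of G1 and S phase (2, median 0.0081), 23 of G2 and M phase (6, median −0.033) and 16 reference genes (3, median 0.046). Of the reference genes, 13 were measured on any of the 6 arrays. Among all genes tested 0.903% passed, and 1037 of 10518 had an unadjusted p under 0.05. The absence of a call in lists this short is therefore not a trait of these programmes.

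To ask how the response changed with time, ISO at 1 h was compared with ISO at 2 h and at 4 h, each measured against medium of its own time. The test against medium was passed by 95 genes after 1 h, by 180 after 2 h (1.71% of genes tested) and by 353 after 4 h (3.36%). Of the 95 genes, 49 also passed in the same direction at 2 h, which is 51.6% of the 1 h genes and 27.2% of the 2 h genes. At 4 h, 22 of the 95 did so, or 23.2% of the 1 h genes and 6.23% of the 4 h genes. None passed in the opposite direction. The median log2 ratio of the 75 raised genes was 0.52 after 1 h, 0.44 after 2 h and 0.13 after 4 h. The 20 lowered genes had medians of −0.42, −0.46 and −0.28. Since these genes were chosen at 1 h, the medians are a description.

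In the direct test, 60 genes differed between ISO at 1 h and ISO at 4 h (0.57% of genes tested), 39 with higher ratios at 1 h (0.371%) and 21 with lower ratios (0.2%). Of the 75 genes raised at 1 h, 16 had higher ratios at 1 h than at 4 h and none had lower ones. Nr4a1 averaged 2.43, 0.85 and −0.17 after 1, 2 and 4 h (difference of 1 h minus 4 h 2.60 ± 0.45, SE, adjusted p 0.00378). Dusp1 averaged 1.71, 0.10 and −0.29 (difference 2.00 ± 0.46, SE, adjusted p 0.0379), and at 2 h its sets disagreed in sign, at −0.72, 0.62 and 0.42. Hilpda averaged 1.81, 1.27 and −0.02 (difference 1.82 ± 0.39, SE, adjusted p 0.0228). Btg2, Nr4a2, Ier3, Zfp36, Grasp, Per1 and Cebpb followed the same order, with differences of 1.71, 1.35, 1.16, 1.09, 0.96, 0.95 and 0.78. These 10 genes are given because they passed this test and also meet the rule for named genes. That no set at 4 h reached their lowest set at 1 h is therefore only a description.

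Tgm2, Cytip and Cnnm2 passed the test against medium at all 3 times. Tgm2 averaged 1.20, 1.73 and 2.01 after 1, 2 and 4 h, and its difference of 1 h minus 4 h did not pass (−0.81 ± 0.24, SE, 95% interval −1.29 to −0.33, adjusted p 0.121). Cytip averaged 1.06, 1.61 and 1.17, with a difference of −0.11 and a 95% interval of −0.55 to 0.33. Cnnm2 averaged 0.40, 1.01 and 0.73. Between 1 h and 2 h it was 1 of 2 genes to differ (0.019% of genes tested), by −0.60 ± 0.084 (SE, adjusted p 0.000408). The other was Edil3, an integrin ligand named after its values were seen, at 0.05 with ISO at 1 h and 2.25 with ISO at 2 h (adjusted p 0.0128). Nr4a1 and Zfp36 had lower means at 2 h than at 1 h, but neither difference passed. That of Nr4a1 was 1.58 (95% interval 0.66 to 2.51, adjusted p 0.375) and that of Zfp36 1.03 (95% interval 0.54 to 1.52, adjusted p 0.201). A total of 680 genes differed from 2 h at an unadjusted p under 0.05.

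Of the 20 lowered genes, 3 differed from 4 h. Ptger4 averaged −1.22, −1.26 and −0.42 after 1, 2 and 4 h (difference of 1 h minus 4 h −0.80 ± 0.19, SE, adjusted p 0.0391). Zfp275 averaged −0.90, −0.50 and 0.43 (difference −1.33, adjusted p 0.0458), and Nde1 was at −0.28 with ISO at 1 h and 0.12 with ISO at 4 h (difference −0.40, adjusted p 0.033). Rgs1 averaged −2.02, −2.53 and −1.05, with a 1 h minus 4 h difference of −0.97 that did not pass (95% interval −2.07 to 0.13). Plk2 averaged −1.72, −1.75 and −0.67 (difference −1.05, 95% interval −1.66 to −0.43, adjusted p 0.116). Leaving out 1 set moved the counts. Against 4 h, 18 genes passed without set 2 and 33 without set 3 of ISO at 1 h, and 34, 25 and 23 without sets 1, 2 and 3 of ISO at 4 h. Against 2 h, 1 gene passed without set 2 and 1 without set 3 of ISO at 1 h, and 1, 4 and 1 without sets 1, 2 and 3 of ISO at 2 h.

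**Figure D4:**
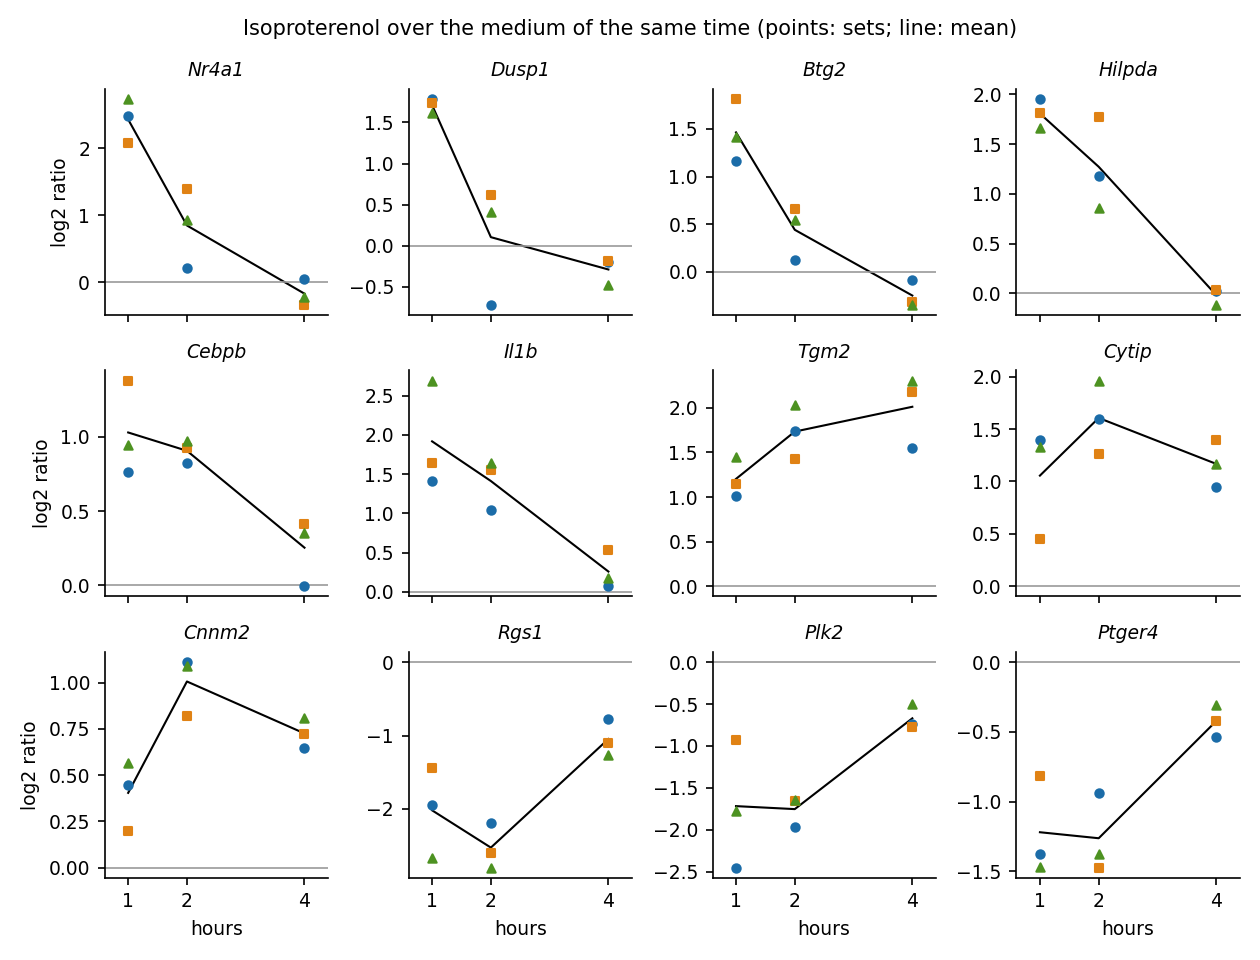
Log2 ratio of ISO over medium of the same time (vertical axis, a scale of its own in each panel) at 1, 2 and 4 h (horizontal axis) for 12 named genes. Circles, squares and triangles are sets 1, 2 and 3 and the line joins means. Nr4a1, Dusp1, Btg2 and Hilpda are at or below 0.04 in every set at 4 h, while Tgm2 and Cytip remain at 0.94 or more.

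PGE2 at 1 h is another ligand that can raise cAMP, through EP2 and EP4. It was given at 10 µM and ISO at 50 nM, so doses are not matched, and the medium of both may be shared. No gene differed between ISO and PGE2 at 1 h in limma at the adjusted threshold (0 of 10518, 0%), and 233 did at an unadjusted p under 0.05. With 2 sets of PGE2 the intervals were wide. Nr4a1 was at 2.48, 2.08 and 2.73 with ISO and at 1.50 and 1.84 with PGE2. Its difference was 0.76 with a 95% interval of −0.27 to 1.80. Cebpb was at 0.76, 1.38 and 0.95 with ISO and at 0.57 and 0.66 with PGE2 (difference 0.42, 95% interval 0.044 to 0.79, unadjusted p 0.0296, adjusted p 1). Rgs1 averaged −2.02 with ISO and −2.04 with PGE2 (difference 0.02, 95% interval −1.20 to 1.25). Ptger4 averaged −1.22 with ISO and −1.31 with PGE2 (difference 0.09, 95% interval −0.34 to 0.52). Without PGE2 set 1, 8 genes differed, and without PGE2 set 2, 5 did. A p that misses the threshold does not show that the ligands act alike.

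**Figure D5:**
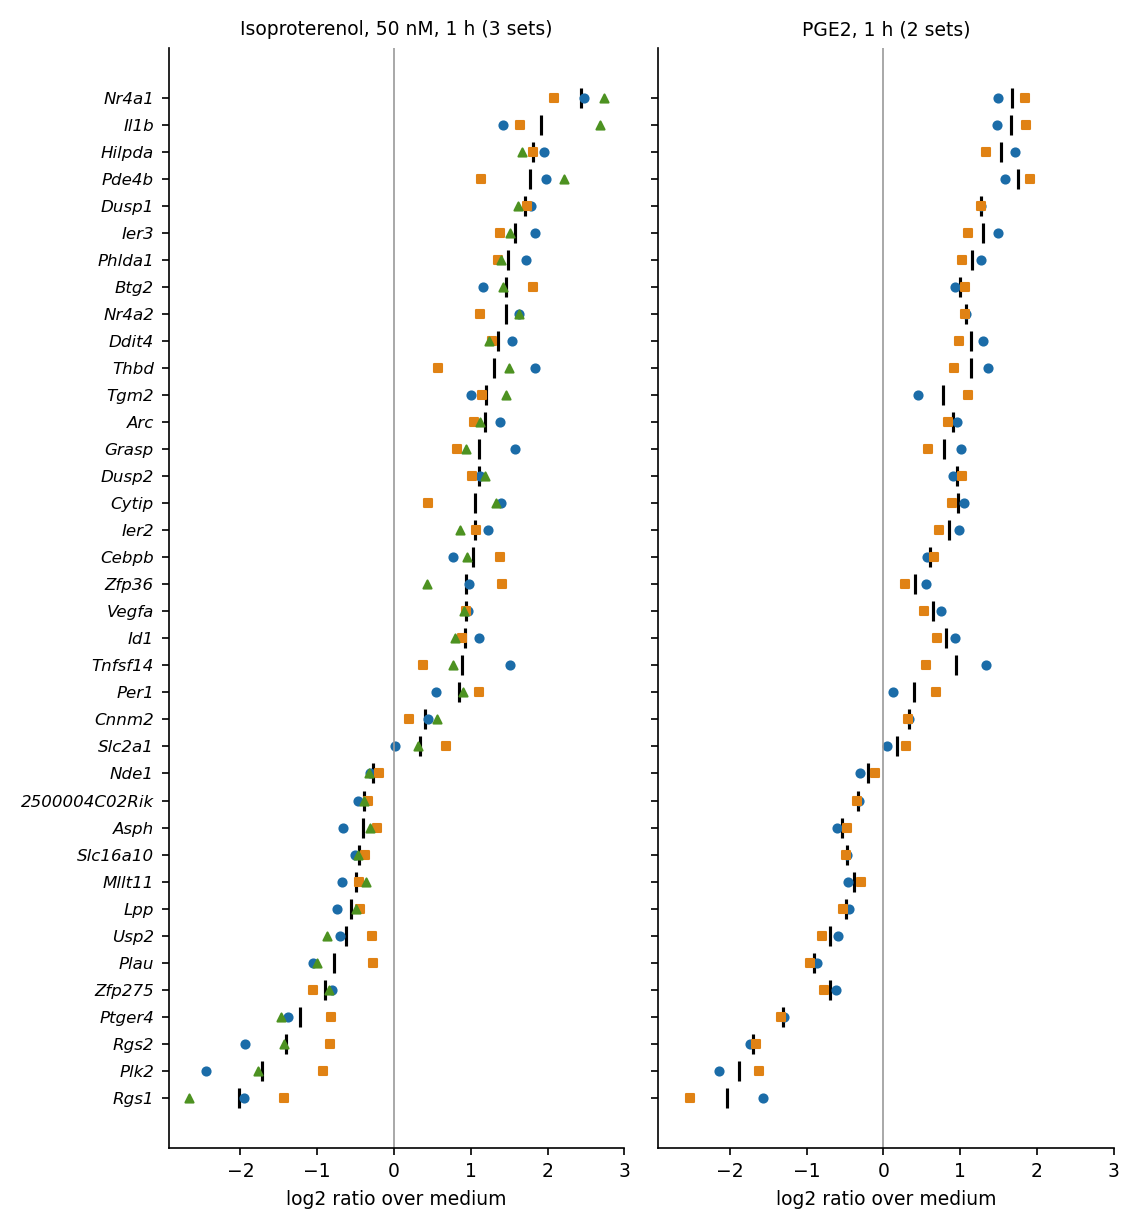
Log2 ratios over medium at 1 h for the 38 named genes past the threshold with ISO, in ISO (left, 3 sets) and PGE2 (right, 2 sets). Circles, squares and triangles are sets 1, 2 and 3 and black bars are means, and Rgs1 is the lowest gene in both panels.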

How the data were processed

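Per the series labels, total RNA of RAW 264.7 cells was hybridised to 2-colour custom Agilent oligonucleotide arrays with Cy3 and Cy5, and groups, sets and dyes were read from the labels. The authors deposited a single table of log2 ratios, by probe and array. The sources used here do not give the image analysis, normalization or filters. The log2 scale is inferred, since the largest absolute deposited value is 6.64, the log2 of 100. Centring is unknown too: every column has a median of 0, held there by exact zeros whose meaning is not given. A gene counts as measured on arrays that hold a nonzero value for it. Ratios were read as Cy5 over Cy3 and turned where ISO RNA was in Cy3. No intensities were part of the table, and the number of arrays limits the precision.

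Of 16281 probes, 13738 had 1 gene symbol in the platform annotation, 52 had several and 2491 were unlisted. Symbols of 13694 were updated through Entrez identifiers with RefSeq (GRCm38.p6). Of the probes with 1 symbol, 478 were at 0 on all arrays and left out. The other 13260 gave 10518 genes as probe means, and 2452 genes had several probes. The 44 pair means of 15 groups were fitted with limma 3.58.1 in R 4.3.3 (statmod 1.5.0 for the block), a mean per group, eBayes without trend (29 residual and 2.678 prior degrees of freedom). The ratio against 0 is the two-sided test against medium. Adjusted p is by Benjamini-Hochberg over all genes of a comparison, threshold 0.05, and SD is over set means. The script was tested on simulated data.

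The members and the 24 gene lists were chosen with earlier results of these data known. Named genes were, among those past the threshold with 1 sign in all sets, the 20 highest and 12 lowest, every list member that passed, up to 6 highest and 6 lowest differences per contrast among genes that also passed at 1 h, and a fixed panel (Tnf, Il6, Il10, Ptgs2, Nr4a1, Nr4a2, Nr4a3, Fos, Egr1, Crem, Per1, Sik1, Areg). An item of this panel is not reported here. Others are named where a count or list range points to them. Alternatives covered the samples in the fit, zeros, centring, probes, dyes, a measurement filter, robust eBayes, the replicate block and sets left out.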

Additional observations from a re-analysis of the deposited data

Results flagged for a closer look

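Among genes under the naming rule, differences between ISO at 1 h and another ISO time stood out where the difference itself passed its test. Against ISO at 2 h this was the case for Cnnm2, whose ratio was lower at 1 h by a log2 difference of −0.60.

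Against ISO at 4 h, the ratio was higher at 1 h for Nr4a1 by a log2 difference of 2.60, for Dusp1 by 2.00, for Hilpda by 1.82 and for Btg2 by 1.71. It was higher for Nr4a2 by 1.35, for Ier3 by 1.16, for Zfp36 by 1.09, for Grasp by 0.96, for Per1 by 0.95 and for Cebpb by 0.78. It was lower at 1 h than at 4 h for Zfp275 (−1.33), Ptger4 (−0.80) and Nde1 (−0.40).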

How the results depend on the processing

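Of the 47 named genes, the 38 past the threshold kept their sign under every alternative tried. Of the 9 that did not pass, 5 changed sign. With ISO RNA in Cy5 only, Il6 was at −0.43, Il10 at −0.025 and Nr4a3 at 0.23, and with ISO RNA in Cy3 only, Sik1 was at −0.016. With the most often measured probe, Il10 was at −0.028. With 1 set left out, Tnf ran from −0.48 to 0.16, Il6 from −0.016 to 0.085, Il10 from −0.0081 to 0.030 and Nr4a3 from −0.020 to 0.0098. The main count of 95 genes changed by ISO at 1 h became 0 with the 3 sets fitted alone, 187 with ISO RNA in Cy5 only, 150 with ISO RNA in Cy3 only, and 56 to 92 with 1 set left out. The single-dye fits keep any dye effect. The 2 genes that differed from 2 h became 0 in a fit of the groups compared alone, 1 with the most often measured probe, 1 with Cy5 arrays only and 1 to 4 with 1 set left out. The 60 genes that differed from 4 h became 9 with the groups compared alone, 33 with exact zeros as missing, 14 with Cy3 arrays only and 18 to 47 with 1 set left out. The 0 genes that differed from PGE2 became 2 with Cy3 arrays only and 0 to 8 with 1 set left out. The cause of these shifts was not tested. Robust eBayes, the filter, centring and pair means with both arrays measured, the last added after the data were seen, gave 84 or 85 genes changed at 1 h, and zeros as missing gave 67.

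With the set number as a replicate block, 134 genes were changed at 1 h, among them all 95, and 8 differed from 2 h, 117 from 4 h and 0 from PGE2. The set numbers of ISO at 1 h paired with those of ISO at 2 h by correlations of deviations of −0.17, 0.077 and −0.085. With ISO at 4 h these correlations were 0.24, 0.082 and −0.051. The labels do not say whether sets of the same number belong together across times. With PGE2, sets 1 and 2 deviated together (r = 0.60).

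The table holds ratios without signal, so how far low signal limits a value is unknown, and 480 genes were at 0 on all 6 arrays with ISO at 1 h.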

Other observations

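Of all genes, 5 reached at least a 2-fold mean difference with ISO at 1 h without passing, all with 1 sign in all 3 sets: Egr1, Cd83, Myc, Atf3 and Rgs16. They are named because this count is small and after their values were seen. Cd83, a surface molecule of activated antigen-presenting cells, had log2 ratios of 0.86, 1.14 and 1.77 (adjusted p 0.0947). Rgs16 had an SD of 0.071 between its sets, while the standard error that the fit drew from all 15 groups was 0.40.

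The sets of ISO at 1 h disagreed on several genes. For 3 inflammatory ones picked from these, Atf3, Ccl4 and Ccl3, the values of other groups stand beside them. Kifc1, on which the sets also disagreed, was at −1.90, −0.38 and 0.17 in sets 1 to 3 of ISO at 1 h. Atf3 was at −2.45, −0.03 and −0.82 in sets 1 to 3 of ISO at 1 h, at −2.04 and −0.69 in sets 1 and 2 of PGE2 at 1 h, and at −2.08, −1.98 and −2.34 in the sets of ISO at 2 h. Ccl4 was at −1.97, 0.20 and −0.99 with ISO at 1 h, at −1.46 and −0.93 with PGE2 at 1 h, and at −1.15, −1.24 and −1.32 with ISO at 2 h. Ccl3 was at −1.35, 0.04 and −0.49 with ISO at 1 h, at −0.98 and −0.35 with PGE2 at 1 h, and at −1.48, −0.82 and −1.36 with ISO at 2 h. For all 3 genes the sets at 2 h lay closer together than those at 1 h. The genes were picked for their disagreement at 1 h, so the closer sets at 2 h are only a description.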
